A study of Mus musculus with 24 samples.

Results

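The genes of DNA replication and S phase were followed in mouse bone marrow-derived macrophages, the phagocytes that grow out of marrow cultured with the growth factor M-CSF. The 46 genes were taken by gene symbol from a list of replication factors, their nucleotide supply and their main regulators, and all 46 had 1 row among the 24537 genes of the expression table of each time point. Cells came from the marrow of 8-week-old female C57BL/6J mice, were grown in 20 ng/mL M-CSF and were harvested on day 7. They received LPS+4-OHE1, LPS, 4-OHE1 or ethanol vehicle (control), for 24 h or 6 h, with 3 libraries in each of the 8 groups. LPS comes from the outer membrane of Gram-negative bacteria and activates macrophages, and 4-OHE1 (4-hydroxyestrone) is a catechol metabolite of estrone. The stated doses are uncertain, because 100 ng/mL LPS and 5 mM 4-OHE1 are given both as final doses and as stocks diluted 1000-fold. The labels do not say whether the 3 libraries of each group came from different mice or dishes, and p-values here reflect no more than library-to-library spread, possibly technical.

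Macrophages in M-CSF culture can divide, and a cell that enters S phase copies its genome in set steps. The origin recognition complex with Cdc6 and Cdt1 loads the ring of Mcm2 to Mcm7 onto origins, Cdc45 and the GINS complex turn that ring into an active helicase, and polymerases alpha, delta and epsilon then copy the strands with the sliding clamp PCNA. Most of these genes are targets of E2F transcription factors, which cyclin E and its kinase help to release from the retinoblastoma proteins, and signals that stop macrophage growth are known to lower them.

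Libraries held 8127155 to 13339193 reads, and genes took 83% to 87.2% of them. All 8 macrophage markers on a fixed list, with the colony stimulating factor receptor Csf1r, Adgre1 and Lyz2 among them, averaged at least 1 FPKM in every group, except Mrc1 in LPS libraries at 24 h (FPKM is the read count of a gene scaled to transcript length and library depth). At 6 h, LPS+4-OHE1 replicate 3 stood apart from its group. The summed level of the 46 genes was 749 FPKM in that library and 620 FPKM in each of the others of its group, against 264 to 285 FPKM in LPS libraries, 704 to 730 FPKM in 4-OHE1 libraries and 1348 to 1394 FPKM in control libraries. At 24 h the sums were 254 to 285 FPKM in LPS+4-OHE1 libraries, 169 to 184 FPKM in LPS libraries, 471 to 505 FPKM in 4-OHE1 libraries and 1315 to 1366 FPKM in control libraries. In bulk RNA, fewer cells in S phase and less RNA per cell cannot be told apart.

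Promoters of the genes are shown first, and a link between their sequences and the changes below was not tested. Of the 46 genes, 40 had a promoter in the RefSeq table for GRCm38.p6, and the 250 bases before each start site were searched for 4 spellings of the E2F site, TTTCCCGC, TTTCGCGC, TTTGCCGC and TTTGGCGC, on both strands, with overlapping matches counted once. The start site was that of the counted transcript for 32 of the 40 and within 100 bases of it for 35. The largest distance was 555 bases, and those of Cdc6 and E2f1 were 262 and 466. A match was found in 8 of the 40 promoters (20.0%), against 2.36% of the 17563 promoters searched. The 8 genes were Mcm5, Mcm6, Mcm7, Orc1, Cdc6, Pola1, Rfc3 and Uhrf1. Mcm6 was the only one with 2 matches, a number that 0.0740% of all promoters reached. The letters CCAAT, the core of the site that NF-Y binds, were present on either strand in 24 of the 40 (60%) and in 35.8% of all promoters. The E2F matches of Mcm6 (chr1:128359706-128359955, minus strand) and Mcm5 (chr8:75109259-75109508, plus strand) are in capitals below, overlapping spellings written as 1 run. Pcna (chr2:132253181-132253430, minus strand) and Rpa1 (chr11:75348384-75348633, minus strand), the most abundant genes with no match among the 40, are given for comparison.
Mcm6: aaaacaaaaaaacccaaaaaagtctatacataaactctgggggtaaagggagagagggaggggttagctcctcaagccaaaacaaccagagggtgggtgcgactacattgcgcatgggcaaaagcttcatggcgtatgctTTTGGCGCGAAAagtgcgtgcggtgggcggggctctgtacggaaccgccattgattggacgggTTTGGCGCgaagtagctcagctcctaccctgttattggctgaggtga
Mcm5: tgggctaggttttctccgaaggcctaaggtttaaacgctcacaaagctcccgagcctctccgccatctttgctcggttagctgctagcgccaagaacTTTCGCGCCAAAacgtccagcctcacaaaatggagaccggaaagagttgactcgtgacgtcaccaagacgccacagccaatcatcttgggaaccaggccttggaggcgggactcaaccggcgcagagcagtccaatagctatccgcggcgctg
Pcna: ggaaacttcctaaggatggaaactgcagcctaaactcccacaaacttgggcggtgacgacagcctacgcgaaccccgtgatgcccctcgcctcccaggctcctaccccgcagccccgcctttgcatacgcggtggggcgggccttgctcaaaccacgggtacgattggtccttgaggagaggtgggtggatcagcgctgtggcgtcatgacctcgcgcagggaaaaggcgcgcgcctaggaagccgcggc
Rpa1: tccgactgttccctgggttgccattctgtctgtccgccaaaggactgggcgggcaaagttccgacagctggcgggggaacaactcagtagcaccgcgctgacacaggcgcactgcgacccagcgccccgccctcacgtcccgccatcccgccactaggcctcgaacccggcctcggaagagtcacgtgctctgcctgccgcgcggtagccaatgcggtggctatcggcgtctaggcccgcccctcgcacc

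The question put to all 46 genes was first what each agent did alone, next to the control. With LPS, every one was lower at 24 h and every one at 6 h, and with 4-OHE1 46 were lower at 24 h and 43 at 6 h. On FPKM values without further scaling between libraries, the median level at 24 h was 7.68% of control with LPS and 30.2% with 4-OHE1. At 6 h it was 14.5% with LPS and 46.3% with 4-OHE1. The largest falls with LPS were of Rrm2, which encodes the small subunit of ribonucleotide reductase, and of the transcription factor E2f2. None of the genes was listed at 0 FPKM in any library, but 14 averaged under 1 FPKM with LPS at 24 h and 6 did at 6 h.

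These calls came from limma on log2(FPKM + 0.5), with Benjamini-Hochberg adjustment over all genes tested and a threshold of 0.05, and log2 differences are given ± SE on that scale, which understates the change of low genes. Many other genes were lower as well. LPS lowered 53.5% of all tested genes at 24 h, with a median of -0.31 over all genes and -3.06 over the 46, and 68.1% at 6 h, with medians of -0.61 and -2.52. For 4-OHE1 the share lower was 23.1% at 24 h, with medians of 0.05 and -1.59, and 44.0% at 6 h, with medians of -0.21 and -1.05. Median-of-ratios scaling, which brought the all-gene medians to between -0.05 and 0.01, left all 46 lower with LPS at 24 h, as were 33.9% of all genes, and at 6 h, as were 35.1%. With 4-OHE1 it left 46 lower at 24 h, as were 28.2% of all genes, and 42 at 6 h, as were 32.0%. The size of the falls changed with this scaling. The medians of the 46 became -2.79 at 24 h and -1.91 at 6 h with LPS, both smaller falls. With 4-OHE1 they became -1.65 at 24 h and -0.88 at 6 h. For Chek1 at 24 h, control was the only group with all 3 libraries at 1 FPKM or more, beside 1.11, 0.773 and 1.228 FPKM with 4-OHE1. It would not have passed the filter on low values without control, so its call there is no separate support. The other 45 had all 3 of their 4-OHE1 libraries at 1 FPKM or more too.

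**Figure D1:**
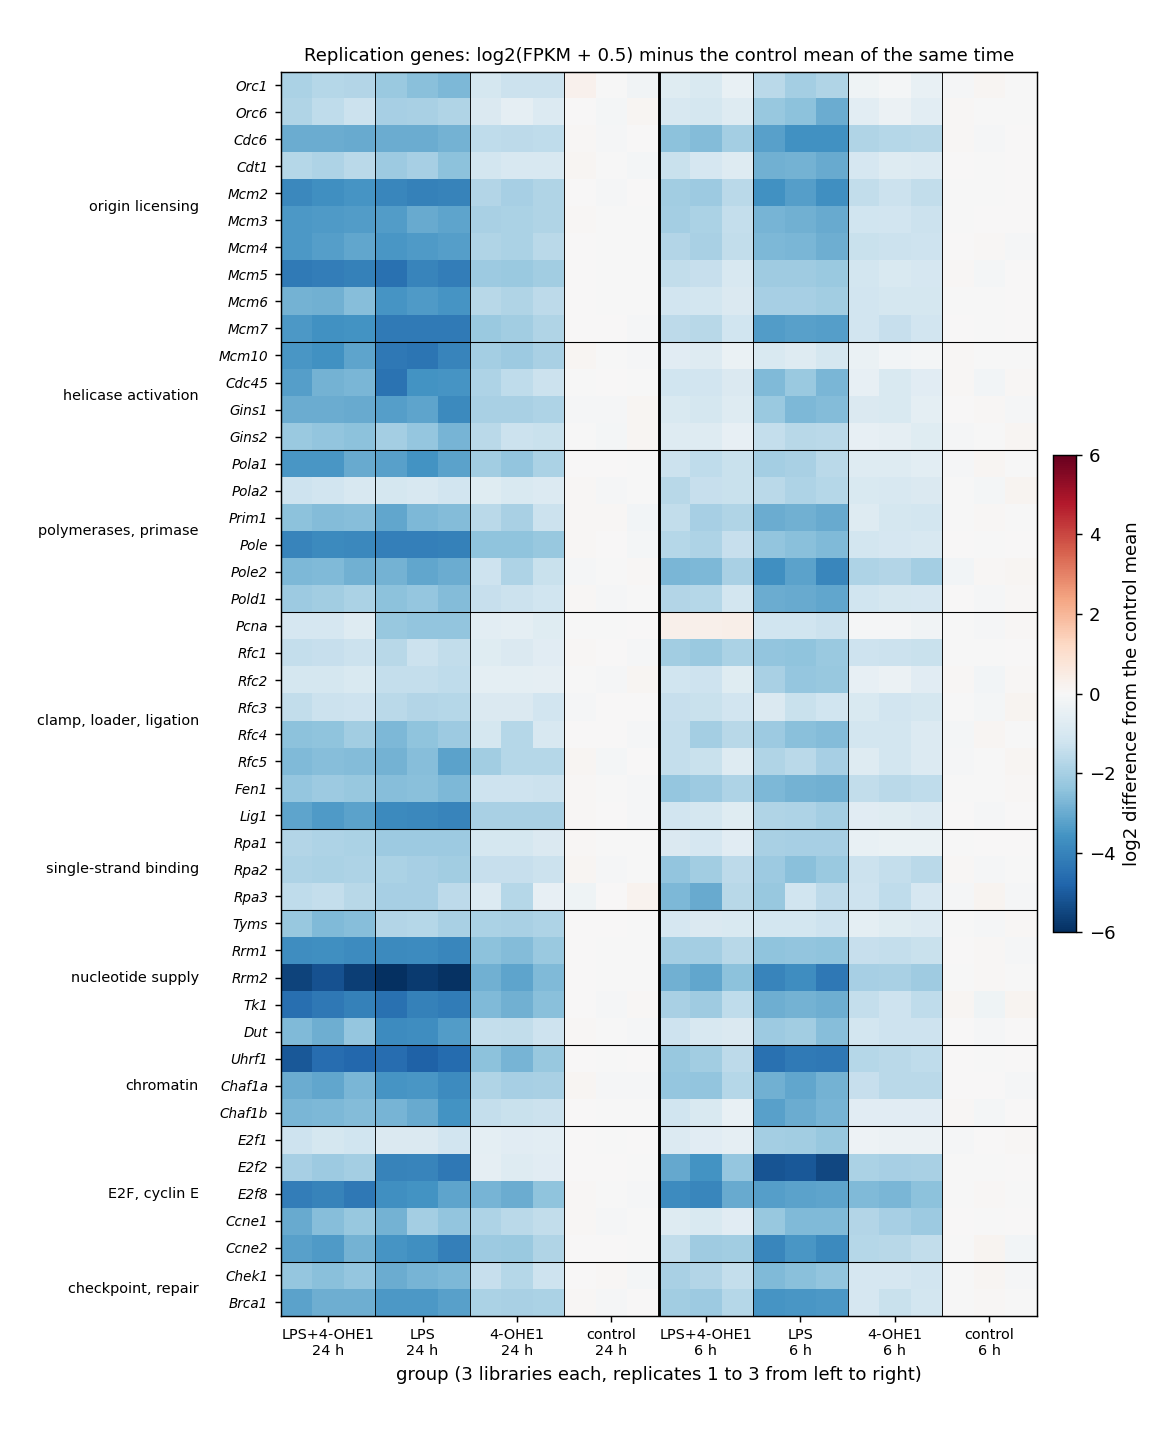
Each row is 1 of the 46 genes, ordered by role, and each column 1 library. Color is log2(FPKM + 0.5) minus the control mean of the same time, blue for lower. Nearly all treated libraries are blue, deepest for Rrm2 with LPS at 24 h, and Pcna with LPS+4-OHE1 at 6 h is the exception above control.

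Markers of marrow progenitors, which divide, had their lowest sum with LPS and their highest in control at both times. All 6 of the list (Kit, Cd34, Flt3, Gata2, Ms4a2 and Cpa3) were in the tables, and at 24 h they summed to 0.852 to 1.702 FPKM in LPS+4-OHE1 libraries, 0.306 to 0.451 FPKM in LPS libraries, 2.62 to 4.11 FPKM in 4-OHE1 libraries and 9.804 to 10.6 FPKM in control libraries. At 6 h the sums were 3.33 to 4.15 FPKM in LPS+4-OHE1 libraries, 1.06 to 1.08 FPKM in LPS libraries, 4.86 to 6.14 FPKM in 4-OHE1 libraries and 6.33 to 6.97 FPKM in control libraries. Cd34 was the most abundant of them in control, while Ms4a2 was at 0 in all control libraries at both times, Cpa3 in those at 6 h and Flt3 in those at 24 h. Some members went the other way. Gata2 at 6 h had 1.38, 1.16 and 1.42 FPKM with LPS+4-OHE1, 1.12, 1.597 and 1.21 FPKM with 4-OHE1 and 0.070, 0.176 and 0.174 FPKM in control, and at 24 h 0.253, 0.473 and 0.923 FPKM with LPS+4-OHE1 and 0.093, 0.237 and 0.166 FPKM in control. Kit at 6 h had 2.197, 1.91 and 2.19 FPKM with 4-OHE1 and 1.38, 1.13 and 1.51 FPKM in control. The 8 neutrophil markers summed at 24 h to 82.3 to 112 FPKM in LPS+4-OHE1 libraries, 47.2 to 64.2 FPKM in LPS libraries, 7.81 to 10.8 FPKM in 4-OHE1 libraries and 2.74 to 3.096 FPKM in control libraries, and at 6 h to 1.66 to 1.97 FPKM in LPS+4-OHE1 libraries, 7.22 to 7.86 FPKM in LPS libraries, 2.96 to 4.91 FPKM in 4-OHE1 libraries and 2.25 to 6.11 FPKM in control libraries. S100a8 carried most of the 24 h sums, with 112, 81.4 and 96.3 FPKM with LPS+4-OHE1 and 60.2, 43.5 and 42.8 FPKM with LPS. Camp went the other way between these groups at 24 h. It had 0.345, 0.679 and 0.305 FPKM with LPS+4-OHE1 and 3.897, 6.809 and 3.829 FPKM with LPS. Ly6g, S100a9, Elane, Mpo, Ngp and Retnlg were at or near 0 in every group. The part of these markers in the results was not tested. In no library did B cell markers sum to more than 2.17 FPKM.

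Origin licensing genes, 10 in all, had a median of 6.77% of control with LPS at 24 h and 12.9% at 6 h. Mcm6 encodes a subunit of the helicase ring and was the most abundant of them (chr1:128331575-128359705 on mm10). At 24 h it had 11.4, 11.1 and 14 FPKM in LPS+4-OHE1 libraries, 6.75, 7.45 and 6.86 FPKM in LPS libraries, 26.5, 23.8 and 27.6 FPKM in 4-OHE1 libraries and 85.9, 82.4 and 83.4 FPKM in control libraries. At 6 h it had 41.2, 42.7 and 51.2 FPKM in LPS+4-OHE1 libraries, 22.97, 23.4 and 21.9 FPKM in LPS libraries, 42.4, 45.4 and 44.99 FPKM in 4-OHE1 libraries and 92.1, 91.5 and 96.3 FPKM in control libraries. No library of a treated group reached a control library at either time, the LPS libraries were the lowest, and LPS+4-OHE1 overlapped 4-OHE1 at 6 h. LPS changed it by -3.49 ± 0.09 at 24 h (limma adjusted p = 3.58e-12) and by -2.01 ± 0.07 at 6 h (adjusted p = 1.05e-10). Mcm7 (chr5:138164589-138171862), another subunit of the ring, showed the largest fall of the group with LPS at 24 h. Its levels at 24 h were 2.58, 2.23 and 2.36 FPKM in LPS+4-OHE1 libraries, 1.31, 1.31 and 1.29 FPKM in LPS libraries, 6.75, 7.56 and 9.37 FPKM in 4-OHE1 libraries and 34.5, 33.7 and 32.4 FPKM in control libraries. Its levels at 6 h were 10.8, 10.2 and 14.4 FPKM in LPS+4-OHE1 libraries, 2.82, 3.03 and 2.87 FPKM in LPS libraries, 14.9, 12.5 and 14.8 FPKM in 4-OHE1 libraries and 33.4, 32.4 and 34.04 FPKM in control libraries. The 4 groups did not overlap at 24 h, whereas at 6 h LPS+4-OHE1 replicate 3 lay within the range of the 4-OHE1 libraries. The difference with LPS was -4.24 ± 0.10 at 24 h (limma adjusted p = 3.19e-12) and -3.31 ± 0.11 at 6 h (adjusted p = 5.03e-11). Cdc6, a loader of the ring, was among the lowest of all, at 0.271 ± 0.0482 FPKM with LPS at 24 h (SD, n = 3, as for all such levels) against 5.32 ± 0.2397 FPKM in control. At 6 h it was at 0.0773 ± 0.0915 FPKM from 11 reads over the LPS libraries, so its level there is imprecise. Cdt1, the other loader, averaged 10.3 ± 1.604 FPKM with LPS at 24 h and 49.4 ± 3.85 FPKM in control, and at 6 h 5.97 ± 0.378 FPKM with LPS and 48.4 ± 0.378 FPKM in control.

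Helicase activation genes were Cdc45, Mcm10, Gins1 and Gins2. Gins2 (chr8:120581266-120589075), a subunit of the GINS complex, was the most abundant. At 24 h it stood at 6.14, 5.47 and 5.09 FPKM in LPS+4-OHE1 libraries, 7.12, 5.63 and 3.96 FPKM in LPS libraries, 9.73, 12.1 and 11.8 FPKM in 4-OHE1 libraries and 30.5, 27.95 and 33.5 FPKM in control libraries. At 6 h it stood at 16.99, 17.02 and 20.6 FPKM in LPS+4-OHE1 libraries, 10.6, 9.08 and 9.17 FPKM in LPS libraries, 21.1, 19.9 and 17.6 FPKM in 4-OHE1 libraries and 27.7, 29.2 and 31.5 FPKM in control libraries. LPS+4-OHE1 and LPS libraries overlapped at 24 h, while at 6 h LPS libraries were below all others. LPS changed Gins2 by -2.39 ± 0.16 at 24 h (limma adjusted p = 3.03e-08) and by -1.57 ± 0.10 at 6 h (adjusted p = 1.17e-08). The exons of Gse1 on the opposite strand cover 70.7% of the exonic bases of Gins2, and counting by strand is not given in the sources used here, so reads of these genes cannot be told apart. Mcm10 (chr2:4990724-5012791) is another factor of this step. At 24 h it gave 0.559, 0.464 and 0.808 FPKM in LPS+4-OHE1 libraries, 0.116, 0.073 and 0.262 FPKM in LPS libraries, 2.36, 2.09 and 2.59 FPKM in 4-OHE1 libraries and 12.4, 11.2 and 10.7 FPKM in control libraries. At 6 h it gave 6.82, 6.35 and 8.29 FPKM in LPS+4-OHE1 libraries, 5.802, 6.31 and 5.21 FPKM in LPS libraries, 8.53, 9.85 and 10.4 FPKM in 4-OHE1 libraries and 11.9, 10.96 and 10.9 FPKM in control libraries. The LPS libraries at 24 h held 15 reads together and lay far below the LPS libraries at 6 h, which were the closest to control of any gene with LPS. LPS changed Mcm10 by -4.21 ± 0.15 at 24 h (limma adjusted p = 5.73e-11) and by -0.91 ± 0.11 at 6 h (adjusted p = 5.48e-06). With 4-OHE1 the change was -2.07 ± 0.15 at 24 h (adjusted p = 2.55e-07), and at 6 h the difference of -0.22 ± 0.11 did not pass (adjusted p = 0.0926).

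Polymerase and primase genes differed widely in how low they went. Pole (chr5:110286319-110337453) encodes the catalytic subunit of the leading-strand polymerase epsilon. At 24 h it was measured at 0.289, 0.364 and 0.332 FPKM in LPS+4-OHE1 libraries, 0.213, 0.202 and 0.241 FPKM in LPS libraries, 1.78, 1.74 and 2.04 FPKM in 4-OHE1 libraries and 12.3, 11.7 and 10.8 FPKM in control libraries. At 6 h it was measured at 2.94, 2.64 and 3.79 FPKM in LPS+4-OHE1 libraries, 1.69, 1.497 and 1.302 FPKM in LPS libraries, 4.73, 5.15 and 5.23 FPKM in 4-OHE1 libraries and 10.8, 10.5 and 11 FPKM in control libraries. The 4 groups did not overlap at either time. The change with LPS was -4.08 ± 0.10 at 24 h (limma adjusted p = 4.79e-12) and -2.50 ± 0.12 at 6 h (adjusted p = 8.23e-10). Pola2 (chr19:5940543-5964206), the accessory subunit of polymerase alpha, fell less. At 24 h Pola2 read 6.84, 7.54 and 8.69 FPKM in LPS+4-OHE1 libraries, 7.86, 8.503 and 7.51 FPKM in LPS libraries, 10.02, 8.905 and 9.48 FPKM in 4-OHE1 libraries and 18.02, 16.4 and 16.9 FPKM in control libraries. At 6 h Pola2 read 5.16, 6.26 and 6.47 FPKM in LPS+4-OHE1 libraries, 5.204, 4.37 and 4.83 FPKM in LPS libraries, 8.85, 8.701 and 9.08 FPKM in 4-OHE1 libraries and 17.02, 15.6 and 19.2 FPKM in control libraries. All treated libraries lay below control, and LPS+4-OHE1 overlapped LPS at both times. Its change with LPS was -1.06 ± 0.09 at 24 h (limma adjusted p = 2.07e-07) and -1.75 ± 0.10 at 6 h (adjusted p = 5.75e-09). Of the others, Pola1, the catalytic subunit of polymerase alpha, changed by -3.37 with LPS at 24 h, Pold1, that of polymerase delta, by -2.47, and the primase subunit Prim1 by -2.79.

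Clamp, clamp loader and ligation genes included the most abundant of the 46, Pcna (chr2:132249286-132253180), whose product is the sliding clamp of replication and also serves DNA repair. At 24 h Pcna reached 79.5, 81.1 and 94.2 FPKM in LPS+4-OHE1 libraries, 33.3, 30.6 and 30.9 FPKM in LPS libraries, 104, 109 and 98.3 FPKM in 4-OHE1 libraries and 159, 159 and 166 FPKM in control libraries. At 6 h Pcna reached 234, 235 and 245 FPKM in LPS+4-OHE1 libraries, 81.8, 83.1 and 78.4 FPKM in LPS libraries, 182, 181 and 163 FPKM in 4-OHE1 libraries and 187, 181 and 201 FPKM in control libraries. At 6 h all LPS+4-OHE1 libraries exceeded all control libraries, 4-OHE1 overlapped control and LPS was lowest. At 24 h every treated library was below control. Pcna was higher with LPS+4-OHE1 than in control at 6 h, by 0.33 ± 0.06 (limma adjusted p = 2.07e-04), and lower at 24 h, with a difference of -0.93 ± 0.07 (adjusted p = 9.48e-08). Lig1 (chr7:13278826-13311427), the ligase that joins Okazaki fragments, fell most of the group with LPS at 24 h. Its 24 h values were 3.804, 3.18 and 3.69 FPKM in LPS+4-OHE1 libraries, 2.26, 2.17 and 2.002 FPKM in LPS libraries, 9.61, 9.45 and 9.69 FPKM in 4-OHE1 libraries and 39.8, 39.2 and 35.9 FPKM in control libraries. Its 6 h values were 17.8, 19.03 and 23.7 FPKM in LPS+4-OHE1 libraries, 10.9, 10.9 and 9.38 FPKM in LPS libraries, 24.8, 23.7 and 22.5 FPKM in 4-OHE1 libraries and 40.8, 38.5 and 40.3 FPKM in control libraries. The groups were separate at 24 h, and at 6 h LPS+4-OHE1 replicate 3 reached the 4-OHE1 range. LPS changed Lig1 by -3.87 ± 0.08 at 24 h (limma adjusted p = 1.01e-12) and by -1.89 ± 0.10 at 6 h (adjusted p = 1.97e-09). Fen1, the flap nuclease of the same step, and the 5 clamp loader genes Rfc1 to Rfc5 were also lower with LPS at both times. An antisense gene, Gm10143, covers 78.8% of the exonic bases of Fen1.

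Rpa1 (chr11:75300259-75348383) encodes the large subunit of the protein that coats single-stranded DNA, together with Rpa2 and Rpa3. At 24 h Rpa1 counted 16.8, 15.8 and 15.4 FPKM in LPS+4-OHE1 libraries, 12.4, 12.3 and 12.7 FPKM in LPS libraries, 27.7, 28.02 and 31.4 FPKM in 4-OHE1 libraries and 60.7, 57.4 and 57.3 FPKM in control libraries. At 6 h Rpa1 counted 31.7, 28.9 and 36.9 FPKM in LPS+4-OHE1 libraries, 14.9, 14.4 and 14.2 FPKM in LPS libraries, 43.1, 44.6 and 43.5 FPKM in 4-OHE1 libraries and 57.3, 59.2 and 58.8 FPKM in control libraries. The 4 groups were apart at both times, in the order LPS, LPS+4-OHE1, 4-OHE1 and control from low to high. The change with LPS was -2.19 ± 0.06 at 24 h (limma adjusted p = 7.69e-12) and -1.98 ± 0.07 at 6 h (adjusted p = 1.27e-10). Rpa3 had few reads, 22 over the LPS+4-OHE1 libraries at 6 h, and the largest SE of the 46, 0.33 in the 6 h fit.

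Of the nucleotide supply genes, Rrm2 (chr12:24708254-24714146) encodes the subunit of ribonucleotide reductase that is made in S phase and limits the making of deoxynucleotides. At 24 h Rrm2 was present at 0.942, 1.3 and 0.876 FPKM in LPS+4-OHE1 libraries, 0.51, 0.776 and 0.628 FPKM in LPS libraries, 8.74, 7.08 and 10.2 FPKM in 4-OHE1 libraries and 69.5, 67.4 and 66.6 FPKM in control libraries. At 6 h Rrm2 was present at 8.16, 6.99 and 11.3 FPKM in LPS+4-OHE1 libraries, 3.61, 4.41 and 2.82 FPKM in LPS libraries, 15.7, 16.4 and 14.4 FPKM in 4-OHE1 libraries and 62.3, 66.8 and 62.5 FPKM in control libraries. At 24 h its LPS level was 0.940% of control, and all 4 groups were separate at both times. On this percent scale E2f2 with LPS at 6 h was lower, at 0.521%. LPS changed Rrm2 by -5.91 ± 0.14 at 24 h (limma adjusted p = 2.90e-12) and by -3.99 ± 0.16 at 6 h (adjusted p = 2.10e-10), and 4-OHE1 by -2.91 ± 0.14 at 24 h (adjusted p = 9.55e-09). Rrm1 (chr7:102441695-102469771), the large subunit, was the most abundant of the 5 supply genes. Its levels stood at 24 h at 4.55, 4.66 and 4.301 FPKM in LPS+4-OHE1 libraries, 4.14, 4.38 and 3.88 FPKM in LPS libraries, 11.6, 10.5 and 13.8 FPKM in 4-OHE1 libraries and 66.8, 65.5 and 66.04 FPKM in control libraries. They stood at 6 h at 14.5, 14.4 and 18.9 FPKM in LPS+4-OHE1 libraries, 11.2, 11.4 and 10.99 FPKM in LPS libraries, 23.5, 22.1 and 23.7 FPKM in 4-OHE1 libraries and 61.7, 63.5 and 58.9 FPKM in control libraries. LPS+4-OHE1 and LPS libraries overlapped at 24 h and were apart at 6 h. LPS changed Rrm1 by -3.85 ± 0.09 at 24 h (limma adjusted p = 2.54e-12) and by -2.40 ± 0.09 at 6 h (adjusted p = 1.16e-10). Tk1, the thymidine kinase of S phase, changed by -4.25 with LPS at 24 h, and Dut, which removes dUTP, by -3.61. Tyms, the thymidylate synthase, averaged 0.84 ± 0.191 FPKM with LPS+4-OHE1, 1.64 ± 0.186 FPKM with LPS, 1.51 ± 0.0606 FPKM with 4-OHE1 and 6.98 ± 0.122 FPKM in control at 24 h. It was the only gene of the 46 whose mean was lower with 4-OHE1 than with LPS at 24 h, and its reads may be shared with the pseudogene Tyms-ps of the same tables.

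Of the chromatin genes, Uhrf1 (chr17:56304313-56323486) guides the maintenance of DNA methylation at the fork. At 24 h Uhrf1 showed 0.51, 0.922 and 0.797 FPKM in LPS+4-OHE1 libraries, 0.944, 0.691 and 0.90 FPKM in LPS libraries, 5.69, 4.39 and 6.49 FPKM in 4-OHE1 libraries and 34.6, 32.9 and 33.97 FPKM in control libraries. At 6 h Uhrf1 showed 6.83, 7.602 and 11.1 FPKM in LPS+4-OHE1 libraries, 1.08, 1.36 and 1.26 FPKM in LPS libraries, 10.3, 10.98 and 11.5 FPKM in 4-OHE1 libraries and 35.5, 33.4 and 34.4 FPKM in control libraries. LPS libraries were far below control at both times, whereas LPS+4-OHE1 libraries overlapped 4-OHE1 at 6 h and LPS at 24 h. The change with LPS was -4.68 ± 0.15 at 24 h (limma adjusted p = 2.57e-11) and -4.33 ± 0.14 at 6 h (adjusted p = 3.05e-11). Chaf1a and Chaf1b, subunits of the chromatin assembly factor that follows the fork, changed by -3.61 and -3.12 with LPS at 24 h. Exons of Ubxn6 on the opposite strand cover 33.6% of those of Chaf1a. Brca1 (chr11:101488764-101551955), which protects and repairs forks, represents the checkpoint genes with Chek1, the kinase that answers stalled forks. At 24 h Brca1 gave values of 0.54, 0.754 and 0.765 FPKM in LPS+4-OHE1 libraries, 0.379, 0.394 and 0.514 FPKM in LPS libraries, 2.07, 2.04 and 2.08 FPKM in 4-OHE1 libraries and 9.53, 8.66 and 9.25 FPKM in control libraries. At 6 h Brca1 gave values of 1.89, 1.69 and 2.52 FPKM in LPS+4-OHE1 libraries, 0.347, 0.388 and 0.416 FPKM in LPS libraries, 4.47, 3.4 and 4.09 FPKM in 4-OHE1 libraries and 9.33, 9.85 and 9.25 FPKM in control libraries. The 4 groups were separate at both times. LPS changed it by -3.38 ± 0.11 at 24 h (limma adjusted p = 3.51e-11) and by -3.50 ± 0.13 at 6 h (adjusted p = 1.10e-10).

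The regulators E2f1 (chr2:154559400-154569892) and E2f2 (chr4:136180782-136196056) are activating members of the E2F family, and E2f8 is a repressing one. At 24 h E2f1 lay at 11.6, 13.1 and 12 FPKM in LPS+4-OHE1 libraries, 14.98, 14.9 and 12.4 FPKM in LPS libraries, 18.5, 17.3 and 17.9 FPKM in 4-OHE1 libraries and 28.1, 27.3 and 28.1 FPKM in control libraries. At 6 h E2f1 lay at 15.4, 16.5 and 18.4 FPKM in LPS+4-OHE1 libraries, 6.17, 6.11 and 5.26 FPKM in LPS libraries, 21.98, 21 and 21.4 FPKM in 4-OHE1 libraries and 25.96, 27.4 and 28.3 FPKM in control libraries. LPS libraries were the lowest at 6 h, but at 24 h they overlapped the LPS+4-OHE1 libraries, whose mean was the lowest. LPS changed E2f1 by -0.96 ± 0.08 at 24 h (limma adjusted p = 1.48e-07), the smallest fall of the 46, and by -2.13 ± 0.08 at 6 h (adjusted p = 1.20e-10). For E2f2 at 24 h the levels were 5.34, 4.56 and 5.14 FPKM in LPS+4-OHE1 libraries, 0.952, 0.991 and 0.698 FPKM in LPS libraries, 15.4, 13.1 and 14.02 FPKM in 4-OHE1 libraries and 23, 23.04 and 22.2 FPKM in control libraries. For E2f2 at 6 h the levels were 2.23, 1.45 and 4.11 FPKM in LPS+4-OHE1 libraries, 0.141, 0.184 and 0.031 FPKM in LPS libraries, 5.79, 5.29 and 5.48 FPKM in 4-OHE1 libraries and 22.5, 22.8 and 22.99 FPKM in control libraries. No groups overlapped, and with 4-OHE1 the 24 h libraries were all above the 6 h libraries. LPS changed E2f2 by -4.08 ± 0.10 at 24 h (limma adjusted p = 3.11e-12) and by -5.24 ± 0.23 at 6 h (adjusted p = 5.00e-10), where the LPS libraries held 14 reads together. E2f8 fell most with 4-OHE1 at 6 h, with a difference of -2.61 ± 0.18 (limma adjusted p = 9.80e-08), and changed by -2.73 ± 0.16 at 24 h (adjusted p = 4.63e-08). The cyclin genes Ccne1 and Ccne2, whose products start S phase, changed by -2.40 and -3.76 with LPS at 24 h.

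**Figure D2:**
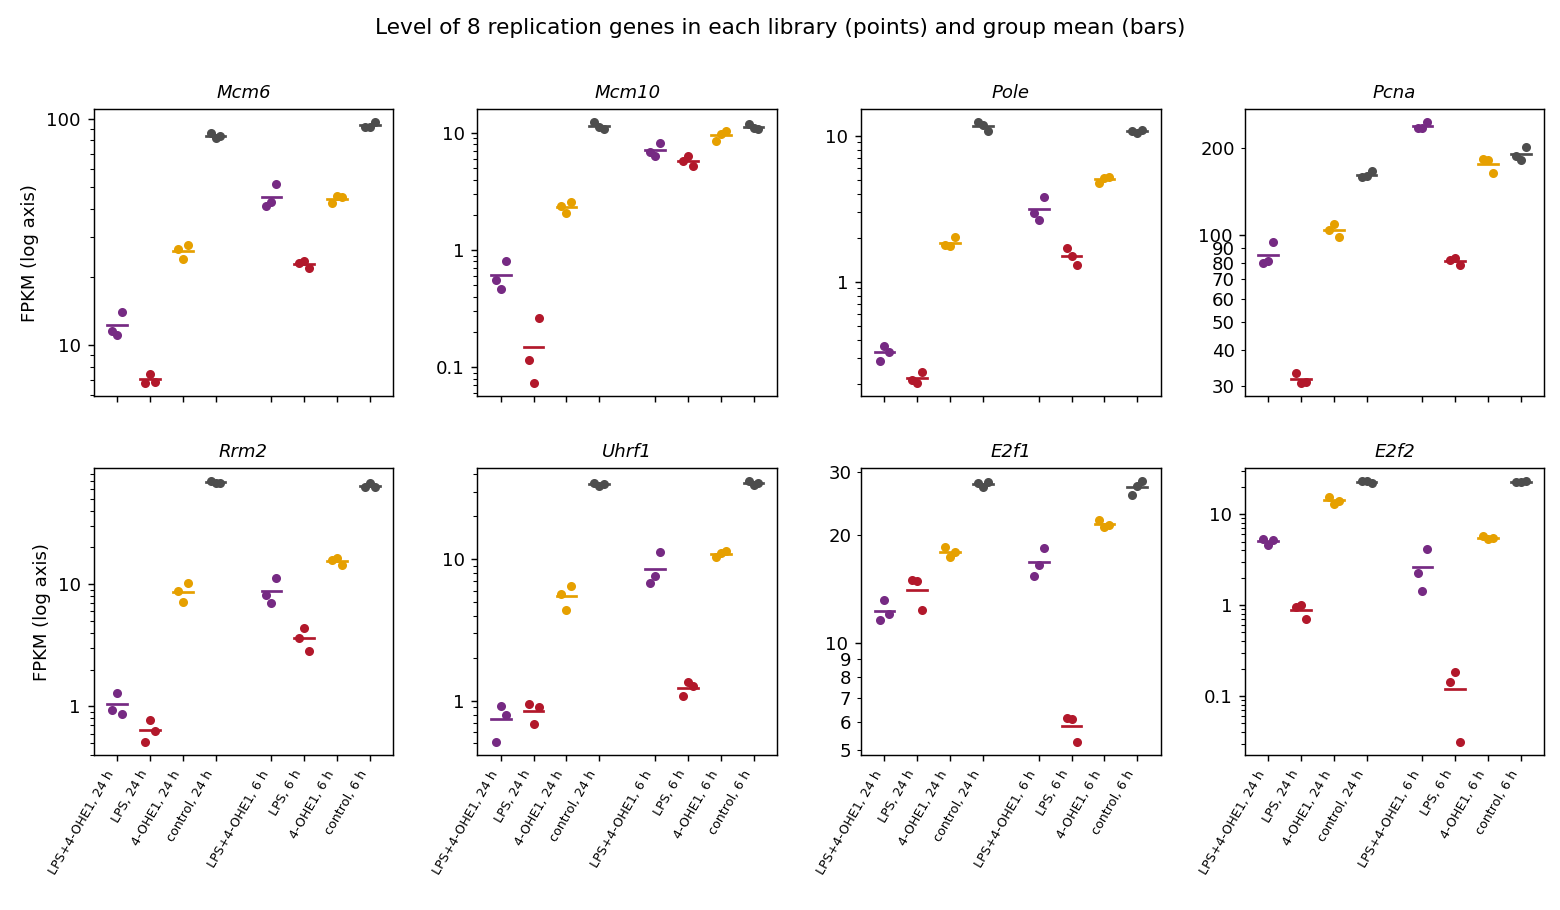
FPKM on a log axis for 8 of the genes, with 1 point per library, bars at the group means and the 24 h groups left of the 6 h groups. LPS libraries are the lowest at 6 h for all 8 genes. E2f1 lies between 12.4 and 15.0 FPKM with LPS at 24 h and between 5.26 and 6.17 FPKM at 6 h, and Mcm10 runs the other way.

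With 4-OHE1 alone, the genes that did not pass the test at 6 h were Pcna (-0.11 ± 0.06, limma adjusted p = 0.108), Mcm10 and Orc1 (-0.27 ± 0.15, adjusted p = 0.142), a subunit of the origin recognition complex. All 4-OHE1 libraries lay below all control libraries for Mcm10 and Orc1, and the groups overlapped for Pcna. E2f1, at -0.34 ± 0.08 at 6 h, was lost from the calls with median-of-ratios scaling. In the authors' deposited table its log2 fold change was -0.11, and it was not called there either. The largest changes at 24 h were of Rrm2, E2f8 (-2.73 ± 0.16) and Tk1 (-2.68 ± 0.14), and at 6 h of E2f8, Rrm2 (-2.01 ± 0.16) and Ccne1 (-1.97 ± 0.12). The smallest at 24 h was of the clamp loader Rfc2 (-0.58 ± 0.07). In LPS libraries the largest were Rrm2, Uhrf1 and Tk1 (-4.25 ± 0.14) at 24 h and E2f2, Uhrf1 and Rrm2 at 6 h.

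What 4-OHE1 did to cells that also received LPS was the next comparison, of LPS+4-OHE1 with LPS. At 6 h most replication genes stood higher with both agents than with LPS alone, 41 of 46, with Uhrf1 (2.35 ± 0.14), E2f2 (2.24 ± 0.23) and Chaf1b (2.16 ± 0.16) leading. At 24 h the difference was smaller and mixed, with 24 genes higher, 3 lower and 19 not passing. E2f2 (2.0 ± 0.10), Pcna (1.41 ± 0.07) and Dut (0.99 ± 0.16) led at 24 h, and Tyms (-0.68 ± 0.12), E2f8 (-0.68 ± 0.16) and Mcm3 (-0.23 ± 0.08), a subunit of the helicase ring, were lower. The genes stayed below control all the same, with medians of 12.5% of control at 24 h and 34.2% at 6 h under LPS+4-OHE1, and Pcna at 6 h was the exception above it.

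Among all genes tested by limma, 39.5% were higher and 14.9% lower with LPS+4-OHE1 than with LPS at 24 h, and 42.7% higher and 25.3% lower at 6 h. The median of the 46 was 0.31 at 24 h, against 0.17 over all genes, and 1.12 at 6 h, against 0.18. Under median-of-ratios scaling the counts at 24 h were 15 genes higher and 5 lower, against 23.7% and 25.6% of all genes. At 6 h that scaling left 38 higher and 3 lower, against 32.1% and 35.0% of all genes. By both times, 23 genes were higher at both, 17 at 6 h with no call at 24 h, and 1, Mcm3, was higher at 6 h and lower at 24 h. For Mcm3 at 24 h the libraries of LPS+4-OHE1 and LPS overlapped. Shares of all genes for these joint calls are not given here. At 6 h, Rpa3 was the gene called lower (-0.79 ± 0.33, adjusted p = 0.0488), with 0.749, 0.496 and 2.08 FPKM in LPS+4-OHE1 libraries, against 1.16, 3.09 and 2.27 FPKM in LPS libraries, with overlapping ranges. That call was lost without LPS replicate 2 or 3 and without LPS+4-OHE1 replicate 1 or 2. The genes without a call at 6 h were Tyms (0.22 ± 0.09), Rfc3 (-0.14 ± 0.12), E2f8 (-0.36 ± 0.18) and Rpa2 (0.30 ± 0.16). Without LPS+4-OHE1 replicate 3, 38 genes were higher at 6 h and 2 lower, and Mcm10, Pola2 and Rfc1 lost their calls while E2f8 became lower.

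**Figure D3:**
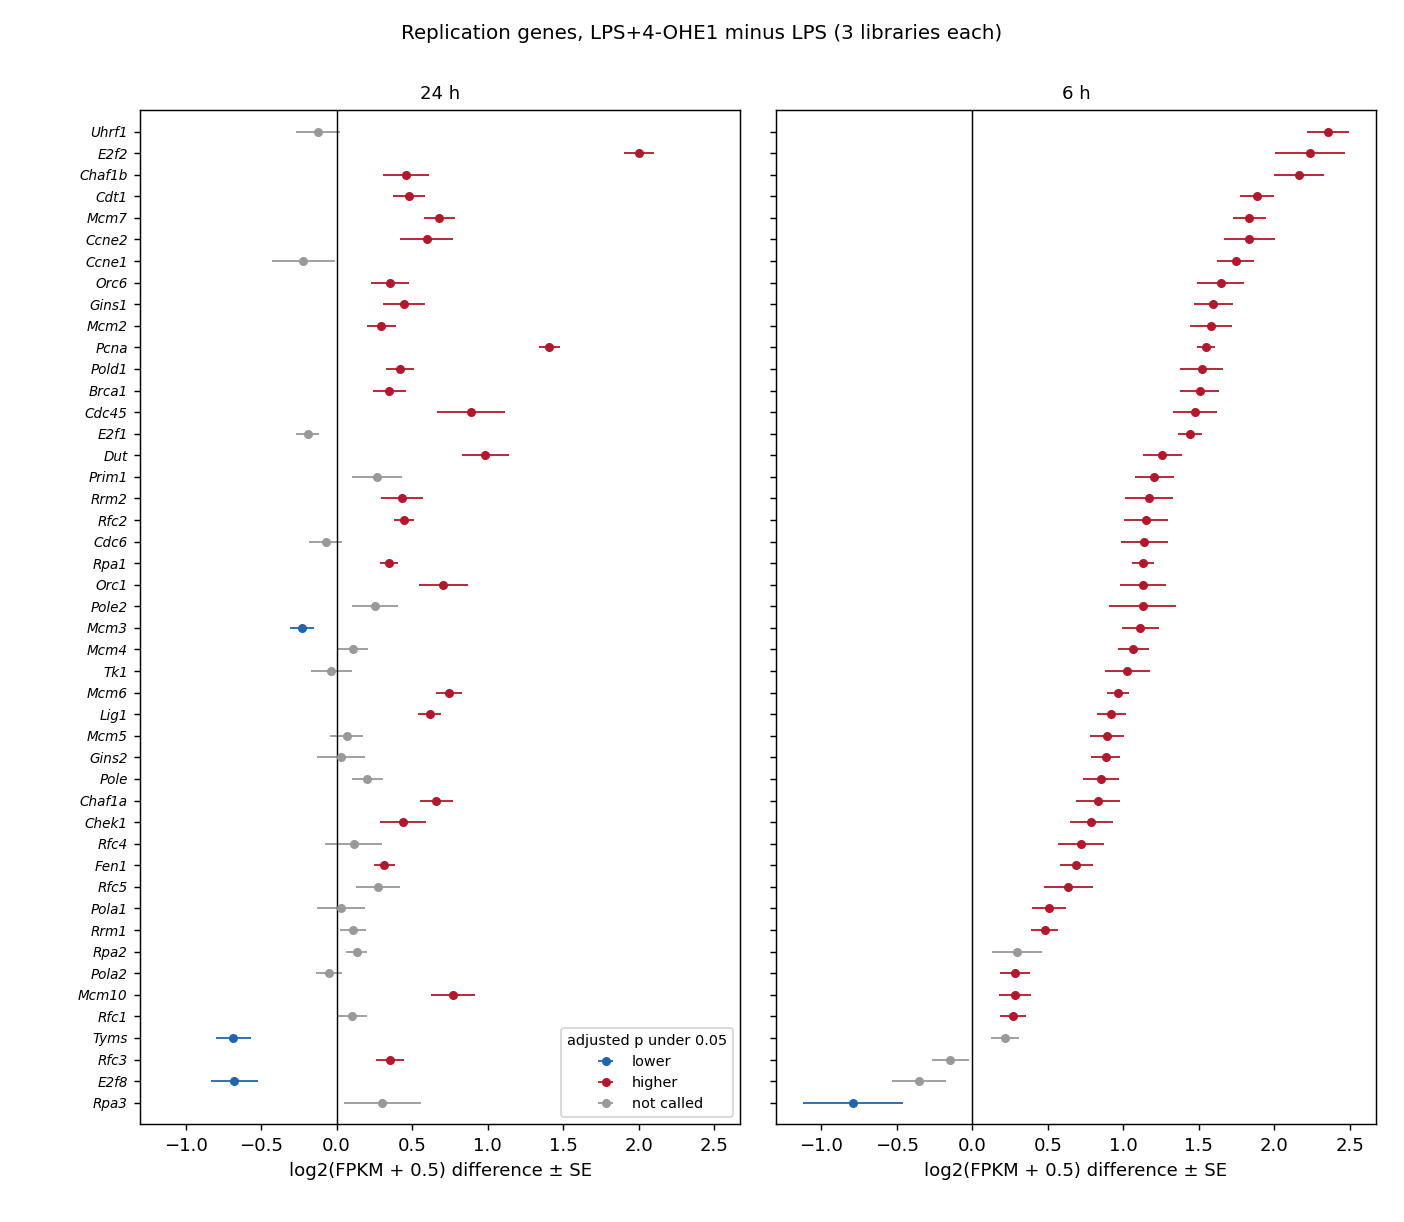
Difference between LPS+4-OHE1 and LPS for each gene, on the log2(FPKM + 0.5) scale with its SE, at 24 h (left) and 6 h (right), in the same gene order. Red points passed an adjusted p of 0.05 as higher and blue points as lower. At 6 h 41 points are red, and at 24 h 24 are red, 3 blue and 19 grey.

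Against control, LPS+4-OHE1 left all 46 genes lower at 24 h, where 42.7% of all tested genes were lower, and 45 lower at 6 h, where 58.8% were. The 6 h exception was Pcna, higher as were 19.1% of all genes. The largest changes were of Rrm2 (-5.48 ± 0.14), Uhrf1 (-4.80 ± 0.15) and Tk1 (-4.28 ± 0.14) at 24 h and of E2f8 (-3.58 ± 0.18), E2f2 (-3.00 ± 0.23) and Rrm2 (-2.81 ± 0.16) at 6 h. The order of the group means was LPS, LPS+4-OHE1, 4-OHE1 and control from low to high in 36 genes at 24 h and in 39 at 6 h. The share of all genes in this order is not given here, so these counts do not set the 46 apart. Cdc6, Mcm3, Gins2, Pola2, Tk1, Tyms, Uhrf1, E2f1, E2f8 and Ccne1 had their lowest mean with LPS+4-OHE1 at 24 h, as Rfc3, Rpa3 and E2f8 did at 6 h, though LPS+4-OHE1 and LPS differed by the test only for Mcm3, Tyms and E2f8 among these at 24 h and only for Rpa3 at 6 h.

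Whether the falls with the 2 agents added up was tested as their interaction on the log2 scale, where a positive value means that both together lowered a gene by less than the sum of the separate falls. It was positive for all 46 genes at 24 h, as for 27.6% of all tested genes, and for 45 at 6 h, as for 45.5%. The largest were of Rrm2 (3.34 ± 0.19), Mcm10 (2.84 ± 0.21) and Mcm7 (2.71 ± 0.14) at 24 h and of E2f2 (4.19 ± 0.33), Uhrf1 (3.97 ± 0.20) and Ccne1 (3.72 ± 0.17) at 6 h. Rpa3 (0.47 ± 0.46, limma adjusted p = 0.401) had no call at 6 h. For 18 genes at 24 h and 6 at 6 h the sum of the falls would lie under the value that 0 FPKM has on this scale, so a positive sign was fixed for them. Rrm2, Mcm10 and Mcm7 at 24 h and E2f2 at 6 h are among these, and Uhrf1 and Ccne1 at 6 h are not. For Uhrf1 the level from the sum, -0.82, lay only just above that value, which left little room for a negative sign. The other 28 genes at 24 h were all positive, as were 39 of the other 40 at 6 h. Some of these were also close to that value, such as Tyms (-0.80) and Mcm2 (-0.77) at 24 h.

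Few of the genes were called between the times in control cells and most were in treated ones, as among all genes. The direction differed, since in treated cells more of these genes were lower at 24 h and more of all genes higher. In control, Pcna (-0.23 ± 0.06, adjusted p = 0.0341) was the 1 gene of 45 called lower at 24 h than at 6 h, where 2.37% of all tested genes were lower, and none was higher, again with 2.37% of all genes. The call of Pcna was lost without control 6 h replicate 1 or 3 and without any 1 of the control 24 h libraries. Rfc1 was left out of comparisons between times because the tables count different transcripts of it. With LPS+4-OHE1, 37 genes were lower at 24 h than at 6 h and 3 higher, against 23.8% and 47.9% of all genes. With LPS, 25 were lower and 9 higher, against 20.8% and 47.6%, and with 4-OHE1, 30 were lower and 3 higher, against 21.2% and 44.2%. The medians of the 45 were -1.46 with LPS+4-OHE1, -0.45 with LPS and -0.65 with 4-OHE1, where those of all genes were 0.25, 0.23 and 0.20. The lowest relative to 6 h were Mcm5 (-2.94 ± 0.11), Uhrf1 (-2.85 ± 0.15) and Mcm10 (-2.79 ± 0.13) with LPS+4-OHE1, Mcm10 (-3.28 ± 0.13), Mcm5 (-2.12 ± 0.11) and Lig1 (-2.04 ± 0.09) with LPS, and Mcm10 (-1.83 ± 0.13), Pola1 (-1.42 ± 0.14) and Lig1 (-1.26 ± 0.09) with 4-OHE1. E2f2 was higher at 24 h with all 3 treatments, by 0.92 ± 0.19 with LPS+4-OHE1, 1.16 ± 0.19 with LPS and 1.28 ± 0.19 with 4-OHE1. Also higher were Rpa3 (1.05 ± 0.32) and Pola2 (0.34 ± 0.09) with LPS+4-OHE1, E2f1 (1.20 ± 0.08) and Rfc2 (0.81 ± 0.12) with LPS, and Pole2 (0.45 ± 0.20), a subunit of polymerase epsilon whose groups overlap, and Fen1 (0.26 ± 0.09) with 4-OHE1. With median-of-ratios scaling Pole2 and Fen1 lost this call with 4-OHE1 and Pola2 with LPS+4-OHE1. Without LPS+4-OHE1 6 h replicate 3, 5 genes were higher at 24 h with LPS+4-OHE1, Rfc2 and Rpa2 being the added ones.

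**Figure D4:**
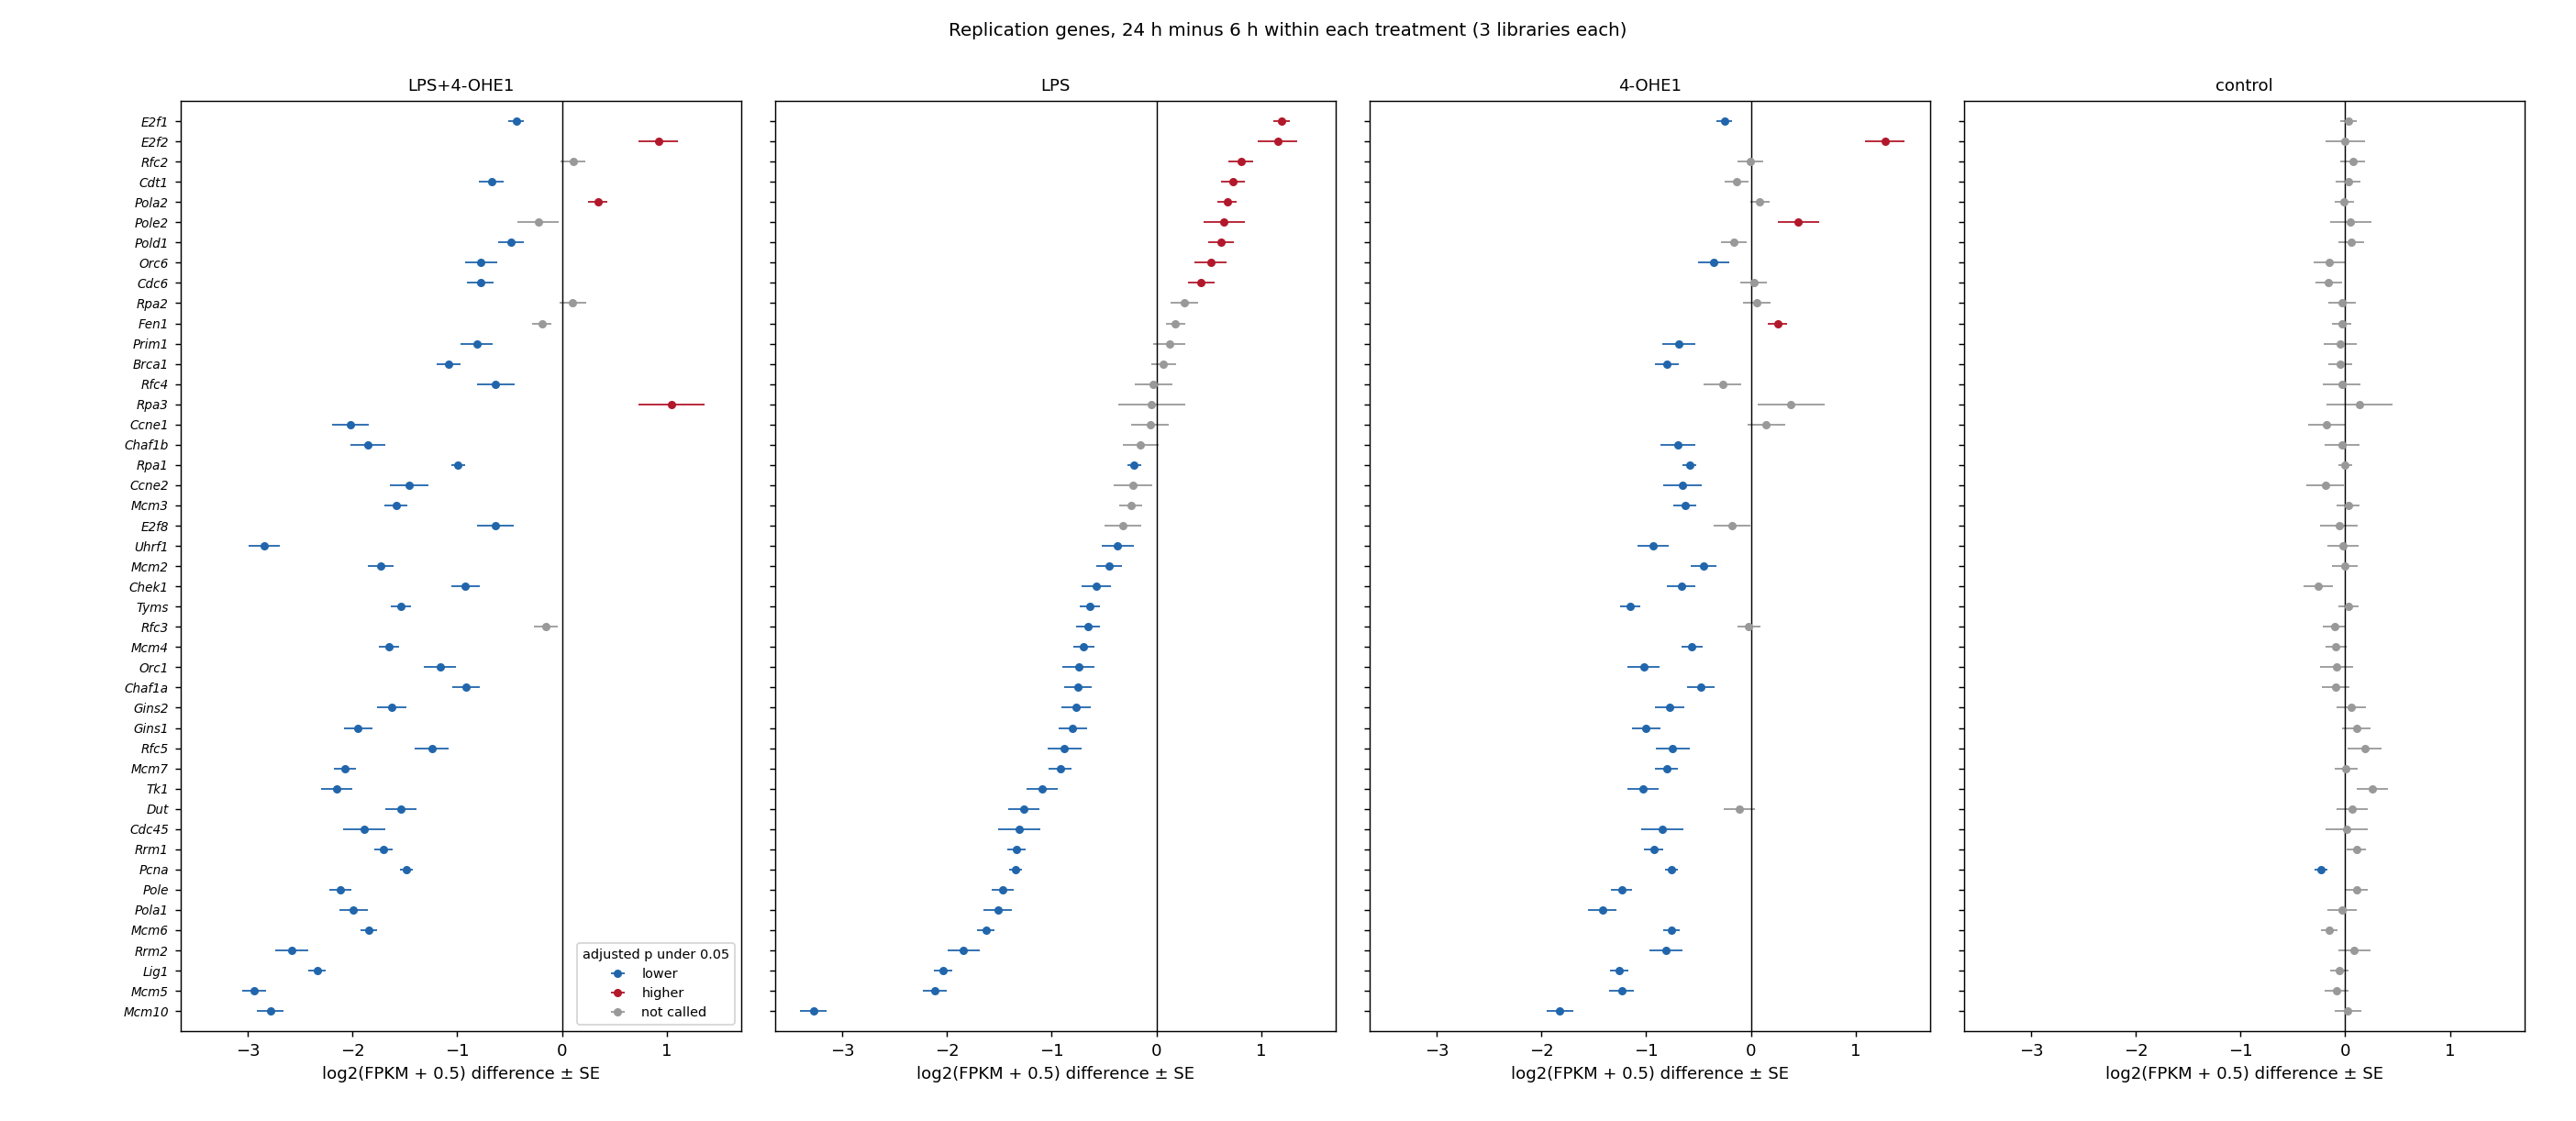
Difference between 24 h and 6 h for 45 genes within each treatment, on the log2(FPKM + 0.5) scale with its SE, in the gene order of LPS. Blue points were lower and red points higher at 24 h at an adjusted p of 0.05. Control points lie near 0, and with LPS the genes range from -3.28 for Mcm10 to 1.20 for E2f1.

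The difference between the times was also tested on the effect of each agent, the 24 h change from control minus the 6 h change. The effect of LPS was more negative at 24 h for 22 of 45 genes and less negative for 8, where 16.9% and 41.7% of all tested genes had lower and higher values. Mcm10 (-3.30 ± 0.18), Mcm5 (-2.03 ± 0.16) and Lig1 (-1.98 ± 0.12) were the most negative and E2f1 (1.17 ± 0.11), E2f2 (1.16 ± 0.26) and Rfc2 (0.74 ± 0.17) the most positive. Among the ring subunits this value was -2.03 ± 0.16 for Mcm5, -1.48 ± 0.11 for Mcm6, -0.93 ± 0.15 for Mcm7, -0.60 ± 0.14 for Mcm4, -0.45 ± 0.17 for Mcm2 and -0.27 ± 0.15 for Mcm3, the last without a call (limma adjusted p = 0.138). The effect of 4-OHE1 was more negative at 24 h for 26 genes, with Mcm10 (-1.85 ± 0.18), Pola1 (-1.39 ± 0.20) and Pole (-1.34 ± 0.15) leading, and less negative for 1, E2f2 (1.28 ± 0.26), against 16.6% and 37.0% of all genes.

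Other genes of the same work were read from lists that hold none of the 46. Their counts stand against the shares of all tested genes, which were 53.5% lower at 24 h and 68.1% lower at 6 h with LPS, and 39.5% higher at 24 h and 42.7% higher at 6 h with LPS+4-OHE1 against LPS. Of 47 further replication factors, 44 were lower and 1 higher with LPS at 24 h (median -1.66), and 45 were lower and 1 higher at 6 h (median -1.92). The checkpoint mediator Clspn was at -4.70 and -4.32. With LPS+4-OHE1 against LPS, 19 were higher and 2 lower at 24 h (median 0.19), and 36 were higher and 3 lower at 6 h (median 0.64). The maintenance methyltransferase Dnmt1, the partner of Uhrf1, was at 2.06 at 6 h. Of 18 fork repair genes, 15 were lower and 0 higher with LPS at 24 h (median -2.56), and 18 were lower and 0 higher at 6 h (median -2.45). With LPS+4-OHE1 against LPS, 4 were higher and 2 lower at 24 h and 12 were higher and 1 lower at 6 h. Of 14 E2F partners and pocket proteins, 11 were lower and 0 higher with LPS at 24 h and 13 were lower and 0 higher at 6 h, and the repressor E2f7 was at -3.88 and -3.69. With LPS+4-OHE1 against LPS, 6 were higher and 0 lower at 24 h and 7 were higher and 2 lower at 6 h. The counts higher with LPS+4-OHE1 than with LPS were near the shares of all genes for the further replication factors at 24 h and for the E2F partners at both times. All 21 mitosis genes were lower with LPS at both times, with a median of -4.54 at 24 h, beside -3.06 for the 46, and of -2.60 at 6 h, beside -2.52. With LPS+4-OHE1 against LPS, 8 were higher and 1 lower at 24 h, with a median of 0.30 beside 0.31 for the 46. At 6 h 7 were higher and 3 lower, with a median of 0.16 beside 1.12. The share of mitosis genes higher was near that of all genes at 24 h and under it at 6 h. Whether the lists differ was not tested.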

How the data were processed

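RNA from 24 libraries in 8 groups of 3 was sequenced. Per the submitters' processing notes, the tools used were STAR, HOMER, DESeq2 and edgeR with build mm10, and their versions and settings are not given in the sources used here. The authors deposited FPKM values for 24537 genes in 1 table per time point, and tables of their own comparisons, each with a log2 fold change and an adjusted p-value. A depth was stated for 18 libraries, per the file headers, and that of the 6 LPS+4-OHE1 libraries was estimated from the FPKM value of 1 read. All values checked came out as whole reads within 0.1 read. For the 6 estimated depths this was also the aim of the estimate, so it is no separate check of them.

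From these values log2(FPKM + 0.5) was tested with limma 3.58.1 in R 4.3.3, with a mean-variance trend, keeping genes with at least 1 FPKM in at least 3 libraries. Each time was fitted with its 12 libraries, and differences between times with all 24, over genes counted on the same transcript. The test was checked on simulated data. Tables and figures were made with Python 3.11.15, pandas 2.3.3 and matplotlib 3.10.9. Genes were named as the most abundant and the most changed of each role and the 3 largest changes each way in a comparison. The genes, the lists and these rules were chosen with earlier results of these data known. Alternatives were another pseudocount (0.1 or 1), no filter or at least 6 libraries, median-of-ratios scaling, robust empirical Bayes, a replicate block, each library left out, only the groups compared, voom on recovered reads, and the authors' deposited tables.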

Additional observations from a re-analysis of the deposited data

Results flagged for a closer look

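The effects of both agents on the replication genes differed between the times, by a test of the difference itself (limma on log2(FPKM + 0.5), Benjamini-Hochberg adjustment over all genes). The effect of LPS was more negative at 24 h than at 6 h for 22 of 45 genes and less negative for 8, beside 16.9% and 41.7% of all tested genes. The largest differences were of Mcm10 (-3.30), Mcm5 (-2.03) and Lig1 (-1.98) on the negative side and of E2f1 (1.17), E2f2 (1.16) and Rfc2 (0.74) on the positive side. The effect of 4-OHE1 was more negative at 24 h for 26 genes, led by Mcm10 (-1.85), Pola1 (-1.39) and Pole (-1.34), and less negative for 1, E2f2 (1.28), beside 16.6% and 37.0% of all tested genes. The libraries of the 2 times stand in separate tables, and handling and time cannot be told apart. In control libraries 1 of 45 genes was called between the times, as lower at 24 h, which is near the 2.37% of all tested genes that were lower.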

How the results depend on the processing

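No called gene changed direction under any alternative. Beside the main count of 1, the genes lower with LPS+4-OHE1 than with LPS at 6 h numbered 0 with a pseudocount of 1, without the filter, with robust empirical Bayes, with voom on recovered reads and with only the groups compared, 3 with median-of-ratios scaling, and 0 to 2 with a library left out. At 24 h, median-of-ratios scaling gave 5 lower, against 3, and 15 higher, against 24, and a fit of only the groups compared gave 14 higher. That scaling left 1 gene, against 3, higher at 24 h than at 6 h with 4-OHE1. Genes with a less negative 4-OHE1 effect at 24 h numbered 2, against 1, with voom and with only the groups compared. Without LPS+4-OHE1 6 h replicate 3, 5 genes, against 3, were higher at 24 h than at 6 h with LPS+4-OHE1. The fall of Pcna in control between the times left 0 calls under the replicate block and 0 to 1 with a library left out, being lost without control 6 h replicate 1 or 3 or any control 24 h library. The cause of these changes was not tested. The replicate block changed 4 of 730 calls. Correlations of same-numbered deviations from the group means ran from -0.09 to 0.27 at 24 h, over 0.1 in 2 of 18 pairs. At 6 h they ran from -0.14 to 0.08, over 0.1 in 0 of 18. The 2 pairs at 24 h were LPS with 4-OHE1, at 0.272 for replicate 2 and 0.270 for replicate 3. With 3 libraries in each group, these values cannot tell whether replicate numbers pair the libraries. Depth limits the lowest genes, with 9 reads of Chek1 over the LPS libraries at 24 h.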

Other observations

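Genes of nucleotide salvage and deoxynucleotide control moved in both directions with LPS. Of 10 tested, 5 were lower and 3 higher with LPS at 24 h, and 6 lower and 4 higher at 6 h. The lower counts were near the 53.5% and 68.1% of all tested genes that were lower at these times. With a control or LPS library left out, 1971 to 2208 of all genes were higher with LPS at 24 h. At 6 h 1632 to 1735 were, and the full fits tested 11185 genes at 24 h and 11098 at 6 h. A difference from the replication genes was not tested. Upp1, a uridine phosphorylase, rose with LPS by 6.78 at 24 h and by 3.70 at 6 h on the log2(FPKM + 0.5) scale, and was lower with LPS+4-OHE1 than with LPS, with differences of -4.15 at 24 h and -2.27 at 6 h (limma, all past an adjusted p of 0.05). Cmpk2, an interferon-induced mitochondrial nucleotide kinase, rose with LPS by 1.94 at 24 h and by 7.66 at 6 h, and fell with 4-OHE1, with differences of -2.03 at 24 h and -1.52 at 6 h.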
